A study of Homo sapiens with 32 samples.

Results

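Chromosome 19 carries the densest collection of zinc finger genes in the human genome, and the loops anchored at these genes in control and sorbitol-treated HEK293 cells are described here. A ZNF gene was a protein-coding gene of chromosome 19 with a symbol of ZNF followed by a number, which gave 249 of the 1476 protein-coding genes of the chromosome. A loop was a ZNF loop when at least 1 of its 5 kb anchors lay within 10 kb of the start of such a gene. Of the 45629 loops in the 4 lists, 1326 were on chromosome 19 and 158 were ZNF loops; 943 were at the starts of the other 1227 genes of the chromosome, and 225 at no protein-coding gene start. The wild-type lists held 18 ZNF loops in control and 37 with sorbitol, and the eGFP-YAP lists held 45 and 58. The gene start lay inside the anchor for 7, 15, 17 and 28 of these loops; the most distant member was 9.97 kb from a start and the nearest loop left out was 10.0 kb from one.

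The loops come from in situ Hi-C, which ligates DNA ends that lie close together in the nucleus, and each was called as a bright spot in a contact map. HEK293 is a human embryonic kidney cell line. The 4 groups were wild-type HEK293 cells, untreated or kept in 200 mM sorbitol, and HEK293 cells of the genotype eGFP-YAP (the transcriptional co-activator YAP joined to a green fluorescent protein), untreated or kept in sorbitol; sorbitol was given for 1 h in both lines and draws water out of the cell. There were 3 samples in each wild-type group and 4 in each eGFP-YAP group, but each condition has a single pooled list, so no spread between samples can be given and no test was made; all intervals below are 95% intervals of counting error only. The design text speaks of 1 h of serum starvation for the eGFP-YAP cells, the growth protocol names HEK293T where the labels name HEK293, and the list names carry different source names for the lines, so line and source cannot be told apart. Whether the eGFP-YAP line is 1 clone, and how the fusion is expressed, is not given in the sources used here. The depth of sequencing behind the lists is unknown; they held 15180 loops in wild-type control, 5906 in wild-type sorbitol, 18966 in eGFP-YAP control and 5577 in eGFP-YAP sorbitol.

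Most ZNF genes of chromosome 19 encode KRAB zinc finger proteins, which bind DNA through arrays of C2H2 fingers and recruit the co-repressor TRIM28 (KAP1) through their KRAB domain. TRIM28 in turn brings the histone methyltransferase SETDB1 and HP1 proteins, and the bodies of the ZNF genes themselves are known to carry the H3K9me3 mark. The ZNF genes here were chosen by symbol alone, so those named below need not have a KRAB domain. The genes arose by repeated tandem duplication, so neighbours within a cluster share sequence and are not independent of each other. CTCF and cohesin form many of the loops seen in unstressed cells, typically between CTCF motifs that point towards each other.

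Members that recur in the results are shown first by sequence. The following 40-base stretches from anchors of ZNF loops hold the CTCF core motif, in capitals (14 bases, at most 1 mismatch), and are printed 5′ to 3′ on the strand of the motif from the hg38 reference. None of them overlaps an annotated UTR. The ZNF846 site (chr19:9796350-9796363, minus strand, 3.17 kb upstream of the gene start and outside protein-coding genes) has no mismatch, and the other sites have 1. The ZNF317 site (chr19:9136661-9136674, plus strand) lies 3.74 kb upstream of that gene. The ZNF333 site (chr19:14686638-14686651, minus strand) is in an intron of ADGRE3, and the ZNF274 site (chr19:58182086-58182099, plus strand) lies 0.943 kb upstream of ZNF274.

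ZNF846: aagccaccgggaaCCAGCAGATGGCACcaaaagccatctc
ZNF317: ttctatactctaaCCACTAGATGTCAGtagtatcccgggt
ZNF333: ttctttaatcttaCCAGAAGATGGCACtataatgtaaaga
ZNF274: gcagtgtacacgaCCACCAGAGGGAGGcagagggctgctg

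The next sequences are the 200 bases upstream of 6 ZNF starts, as RefSeq gives them on GRCh38.p14, printed 5′ to 3′ on the strand of the gene. They are shown because the first 3 genes belong to the stretch with the most loops between ZNF genes and the last 3 recur among the loops named below. Capitals mark TTCTGGG or its reverse complement in ZNF224 (chr19:44094161-44094360, plus strand), ZNF225 (chr19:44113199-44113398, plus strand) and ZNF112 (chr19:44356705-44356904, minus strand). They mark ACTACAA, the core of a motif bound by ZNF143, or its reverse complement in ZNF317 (chr19:9140197-9140396, plus strand), ZNF121 (chr19:9584505-9584704, minus strand) and ZNF358 (chr19:7515903-7516102, plus strand).

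ZNF224: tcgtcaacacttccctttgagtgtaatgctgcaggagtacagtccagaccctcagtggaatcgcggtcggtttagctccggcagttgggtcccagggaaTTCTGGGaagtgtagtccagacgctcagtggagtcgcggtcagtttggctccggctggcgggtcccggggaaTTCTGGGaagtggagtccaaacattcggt
ZNF225: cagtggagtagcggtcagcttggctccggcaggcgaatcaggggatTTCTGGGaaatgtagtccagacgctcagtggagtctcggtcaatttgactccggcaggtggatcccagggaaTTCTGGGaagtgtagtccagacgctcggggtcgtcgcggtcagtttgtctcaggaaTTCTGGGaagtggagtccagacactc
ZNF112: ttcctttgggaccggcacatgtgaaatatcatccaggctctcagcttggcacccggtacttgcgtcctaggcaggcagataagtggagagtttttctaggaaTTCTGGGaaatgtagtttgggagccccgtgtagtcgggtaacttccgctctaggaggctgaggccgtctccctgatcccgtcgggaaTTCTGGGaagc
ZNF317: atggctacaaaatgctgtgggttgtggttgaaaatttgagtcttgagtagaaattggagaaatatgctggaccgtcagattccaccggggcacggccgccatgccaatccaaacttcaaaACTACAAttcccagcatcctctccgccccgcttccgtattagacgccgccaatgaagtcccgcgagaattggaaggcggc
ZNF121: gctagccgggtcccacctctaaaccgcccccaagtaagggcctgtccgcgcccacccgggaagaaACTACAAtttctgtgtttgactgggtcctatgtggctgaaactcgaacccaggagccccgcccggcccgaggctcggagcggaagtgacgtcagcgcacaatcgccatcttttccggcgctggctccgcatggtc
ZNF358: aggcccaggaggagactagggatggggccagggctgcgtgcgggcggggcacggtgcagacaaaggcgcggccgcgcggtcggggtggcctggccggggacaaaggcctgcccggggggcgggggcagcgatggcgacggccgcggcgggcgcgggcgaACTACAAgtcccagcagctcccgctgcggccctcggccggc

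ZNF loops were more numerous with sorbitol in both lines, while loops at the other gene starts of the chromosome were fewer. In wild type, ZNF loops numbered 18 in control and 37 with sorbitol, a ratio of 2.06 (1.14 to 3.84). In eGFP-YAP cells they numbered 45 and 58, a ratio of 1.29 (0.858 to 1.95), whose interval includes 1. The other gene starts of chromosome 19 had 199 and 170 loops in wild type, a ratio of 0.854 (0.692 to 1.05), and 314 and 260 in eGFP-YAP, a ratio of 0.828 (0.70 to 0.979). Loops at no gene start were fewer still with sorbitol, at 0.540 (0.345 to 0.832) and 0.455 (0.305 to 0.668) of the control number. The ZNF ratio divided by that of the other gene starts came to 2.41 (1.32 to 4.38) for wild type and 1.56 (1.02 to 2.38) in eGFP-YAP cells. ZNF loops accordingly made up 6.43% of the loops of chromosome 19 in wild-type control and 15.4% with sorbitol, and 10.1% and 16.2% in eGFP-YAP.

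This contrast with other genes depended on how a loop at a gene was defined and on the length of the lists. When the gene start had to lie inside the anchor, loops at other gene starts were also more numerous with sorbitol, at 1.42 times the control number in wild type (62 and 88 loops) and 1.43 times in eGFP-YAP (114 and 163). ZNF loops by that definition numbered 7 and 15 in wild type, a ratio of 2.14 (0.822 to 6.21), and 17 and 28 in eGFP-YAP, a ratio of 1.65 (0.871 to 3.21), and the ratio of the ratios was 1.51 (0.581 to 3.92) and 1.15 (0.602 to 2.2). The share of gene-bearing anchors with the start inside them was 33.3% in control and 35.8% with sorbitol at ZNF genes of wild type, and 27.3% and 43.0% in eGFP-YAP; at other genes it was 24.5% and 37.2%, and 27.7% and 47.2%. When only the best-scoring control loops were kept, to the length of the sorbitol list, ZNF loops numbered 12 and 37 in wild type and 16 and 58 in eGFP-YAP, and loops at other gene starts 65 and 170, and 72 and 260. The ratio of the ratios was then 1.18 (0.579 to 2.40) and 1.00 (0.544 to 1.85). Both intervals included 1 in both lines, as they did when ZNF loops with another gene start at an anchor were left out (1.81, 0.825 to 3.97, and 1.54, 0.859 to 2.75). In eGFP-YAP the interval also included 1 among the upper 50% of loops by score (1.4, 0.803 to 2.43), without the ZNF575 to ZNF296 cluster, with distances from the anchor centre, with RefSeq starts, with other zinc finger symbols included and with loops at both kinds of start counted in both sets, while in wild type the lower bound under each of these was above 1.

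**Figure D1:**
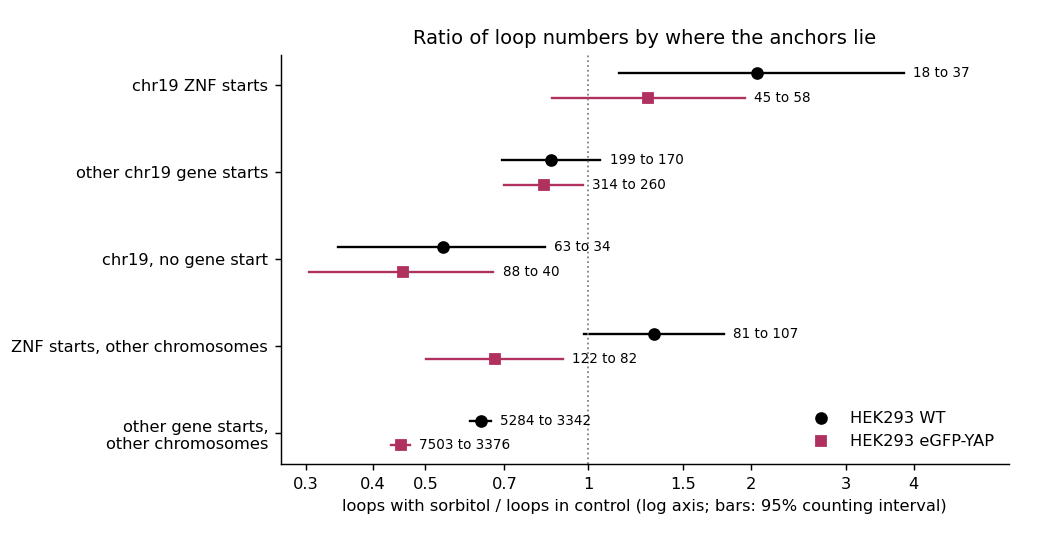
Number of loops with sorbitol divided by the number in control (log axis) for loops grouped by where their anchors lie, in wild-type (circles) and eGFP-YAP (squares) HEK293 cells; lines are 95% counting intervals and the numbers beside them are loops in control and with sorbitol. Loops at ZNF starts of chromosome 19 lie above 1 in both lines, at 2.06 and 1.29, and loops at other gene starts of the chromosome below 1, at 0.854 and 0.828.

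ZNF genes on the other chromosomes, 266 genes, gave opposite directions in wild-type and eGFP-YAP cells. Their loops numbered 81 in control and 107 with sorbitol in wild type, a ratio of 1.32 (0.981 to 1.79), and 122 and 82 in eGFP-YAP, a ratio of 0.672 (0.502 to 0.897). Other gene starts of those chromosomes had ratios of 0.632 and 0.450, so the ZNF ratio divided by theirs was 2.09 (1.56 to 2.80) and 1.49 (1.13 to 1.98). The 176 genes of other kinds that lie inside the ZNF clusters of chromosome 19 had loops away from ZNF starts that numbered 15 and 11 in wild type and 28 and 21 in eGFP-YAP.

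ZNF loops with another kind of gene start at an anchor numbered 7 in control and 20 with sorbitol in wild type, and 23 and 30 in eGFP-YAP. Those with no other gene start at either anchor numbered 11 and 17, and 22 and 28. Loops joining ZNF starts at both anchors numbered 6 and 16 in wild type and 21 and 21 in eGFP-YAP. Their share of all ZNF loops was 33.3% (16.3 to 56.3) in control and 43.2% (28.7 to 59.1) with sorbitol in wild type, and 46.7% (32.9 to 60.9) and 36.2% (25.1 to 49.1) in eGFP-YAP; the intervals overlap in each line. All 64 entries that joined ZNF starts at both anchors stayed within 1 cluster of ZNF genes, and in 31 of them a pair of joined genes was on the same strand. The anchors were mostly specific to 1 gene, with 198 of 222 ZNF anchors having a single ZNF start within 10 kb.

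Few ZNF genes had a loop, compared with the genes of the chromosome as a whole. A loop was listed for 20 of the 249 ZNF genes in wild-type control, where 24.5% of all protein-coding gene starts of the chromosome had one, and for 40 with sorbitol, where 29.7% had one. In eGFP-YAP cells 47 ZNF genes had a loop in control, beside 34.6% of all gene starts, and 52 with sorbitol, beside 36.3%. As shares, these are 8.03%, 16.1%, 18.9% and 20.9% of the ZNF genes, each below the share of all genes. Over the 4 lists 87 ZNF genes (34.9%) had a loop, against 61.9% of all gene starts, and 162 had none. Some loop in each of the 4 lists, though never the same loop in all 4, was found at 9 genes (3.61%), against 6.37% of all gene starts. These were ZNF317, ZNF561, ZNF846, ZNF333, ZNF536, ZNF180, ZNF628, ZNF580 and ZNF581.

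In both lines 12 ZNF genes (4.82%) had a loop with sorbitol and none in control, against 8.81% of all gene starts of the chromosome. These were ZNF358, ZNF546, ZNF526, ZNF283, ZNF224, ZNF234, ZNF235, ZNF579, ZNF524, ZNF865, ZNF787 and ZNF417. The reverse, a loop in control and none with sorbitol in both lines, was found for ZNF559, the overlapping readthrough gene ZNF559-ZNF177 and ZNF575 (1.2%), against 5.89% of all gene starts. Within wild type, 29 ZNF genes had a loop with sorbitol only (18.7% of all gene starts did) and 9 in control only (13.5%). Within eGFP-YAP, 30 had a loop with sorbitol only (18.6% of all gene starts) and 25 in control only (16.9%). The share of ZNF genes was below that of all genes in each of these classes.

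**Figure D2:**
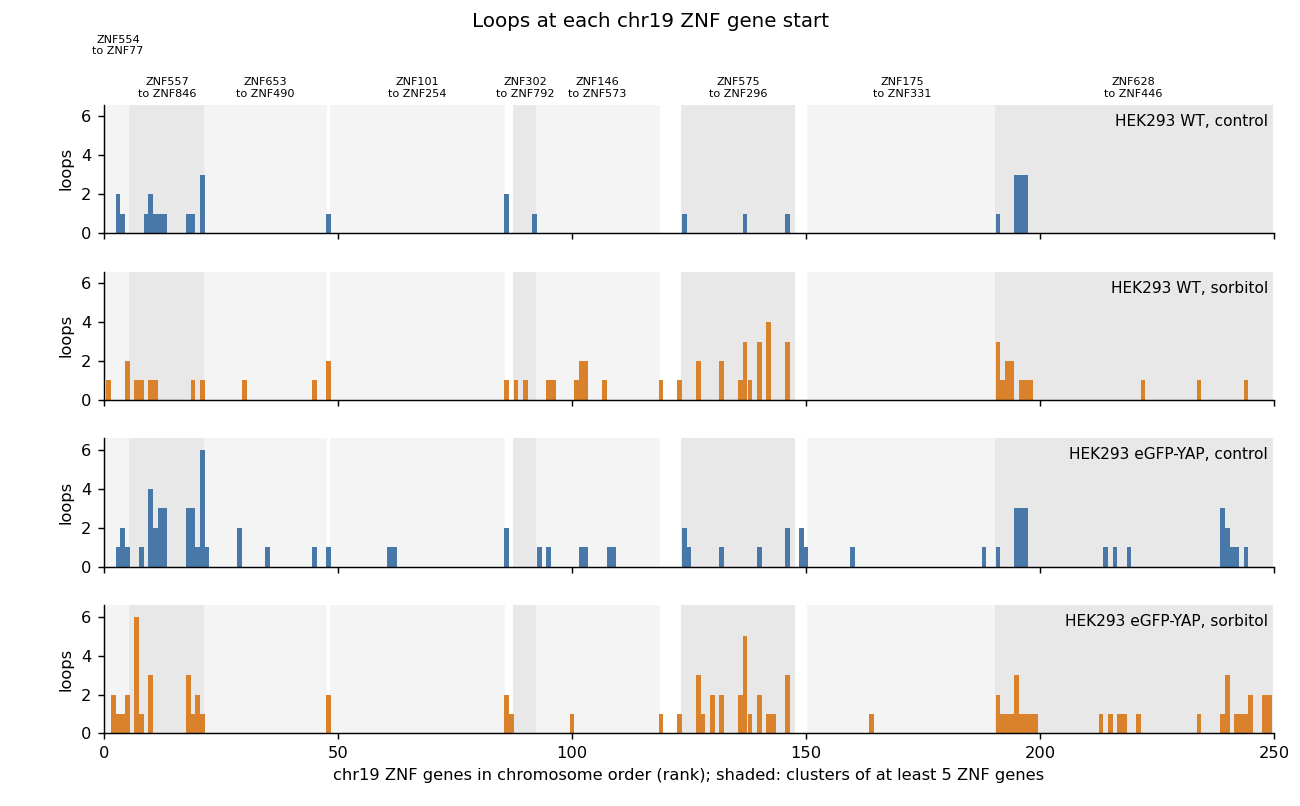
Number of loops at each of the 249 ZNF genes of chromosome 19, in chromosome order (rank on the x axis), for the 4 lists; shaded blocks are clusters of at least 5 ZNF genes less than 1 Mb apart, named by their first and last gene. The ZNF575 to ZNF296 cluster had 2 loops in wild-type control and 10 with sorbitol, and the ZNF101 to ZNF254 cluster 1 loop in all 4 lists together.

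The ZNF genes fell into 9 clusters of at least 5 genes with gaps under 1 Mb, which held 238 of them, and loops were spread unevenly over these. The cluster ZNF628 to ZNF446, near the end of the long arm with 59 genes, had 4 loops in wild-type control, 9 with sorbitol, 10 in eGFP-YAP control and 20 with sorbitol. The cluster ZNF557 to ZNF846, on the short arm with 16 genes, had 6, 5, 12 and 14 loops in the same order. The cluster ZNF575 to ZNF296, with 24 genes, had 2, 10, 5 and 11. By contrast the 37 genes from ZNF101 to ZNF254, which lie next to the centromere on the short arm, had 0, 0, 1 and 0 loops, and the 40 genes from ZNF175 to ZNF331 had 0, 0, 2 and 1. The cluster ZNF653 to ZNF490 (26 genes) had 0, 1, 4 and 0, and ZNF146 to ZNF573 (26 genes) 0, 4, 2 and 1. The smallest clusters, ZNF554 to ZNF77 and ZNF302 to ZNF792 with 5 genes each, had 2, 2, 3 and 4 loops, and 1, 1, 0 and 0.

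The ZNF575 to ZNF296 cluster had the largest difference between control and sorbitol in wild type. Its ratio came to 5.00 (1.07 to 46.9) for wild type and 2.2 (0.705 to 8.08) in eGFP-YAP, and without it the ZNF loops of the other genes gave 1.69 (0.877 to 3.35; 16 and 27 loops) and 1.18 (0.754 to 1.84; 40 and 47). Of its loops, 1 of 2 in wild-type control and 8 of 10 with sorbitol joined ZNF genes at both ends, as did 2 of 5 in eGFP-YAP control and all 11 with sorbitol. All 10 and all 11 of its sorbitol loops lay in the stretch from ZNF283 to ZNF180, against 1 and 2 of its control loops.

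With sorbitol, wild-type cells had loops from ZNF230 to ZNF224 and ZNF225 (110 kb), from ZNF225 to ZNF227 (95 kb), from ZNF234 to ZNF235 (165 kb), from ZNF227 to ZNF235 (110 kb), from ZNF235 to ZNF180 (195 kb) and from ZNF283 to ZNF235 (485 kb), none of them in either control list. The eGFP-YAP cells had loops from ZNF283 to ZNF404 (70 kb), to ZNF221 (120 kb) and to ZNF234 (330 kb), from ZNF221 to ZNF225 (160 kb), from ZNF230 to ZNF225 (115 kb), from ZNF224 to ZNF227 (110 kb), from ZNF225 to ZNF235 (195 kb) and from ZNF225 to ZNF112 (245 kb), again none of them in a control list. With matching within 10 kb, the individual loops of this stretch mostly differed between the lines, but some lay just beyond that limit. The wild-type ZNF225 to ZNF227 and eGFP-YAP ZNF224 to ZNF227 loops shared the right anchor chr19:44205001-44210000. Their left anchors started at 44110001 and 44095001. The ZNF230 to ZNF224 and ZNF225 loop of wild type had anchors starting at 43990001 and 44100001. Those of the eGFP-YAP ZNF230 to ZNF225 loop started at 44000001 and 44115001. The 8 genes joined to another ZNF gene in wild-type sorbitol were all among the 11 joined in eGFP-YAP sorbitol. The stretch covers ranks 127 to 146 of the ZNF genes in chromosome order and was singled out for its loops. Those 11 are therefore a large part of it, and the overlap was not tested. In control the joined genes numbered 2 in wild type and 3 in eGFP-YAP. ZNF225, ZNF230 and ZNF180 are among the 8 through loops in both sorbitol lists. The loop from ZNF225 to ZNF112 had the highest score of the stretch in eGFP-YAP sorbitol, at the 90.5 percentile of its list, and its right anchor (chr19:44355001-44360000) holds the RefSeq start of ZNF112 printed above. The loops found with sorbitol in both lines were ZNF225 to ZNF180, 395 kb in wild type (chr19:44105001-44110000 to chr19:44500001-44505000) and 400 kb in eGFP-YAP, and ZNF230 to ZNF180, 500 and 490 kb. Each was also in 1 control list, the first in wild type and the second in eGFP-YAP. A loop from ZNF227 to ZNF180 (290 kb) was in both eGFP-YAP lists.

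**Figure D3:**
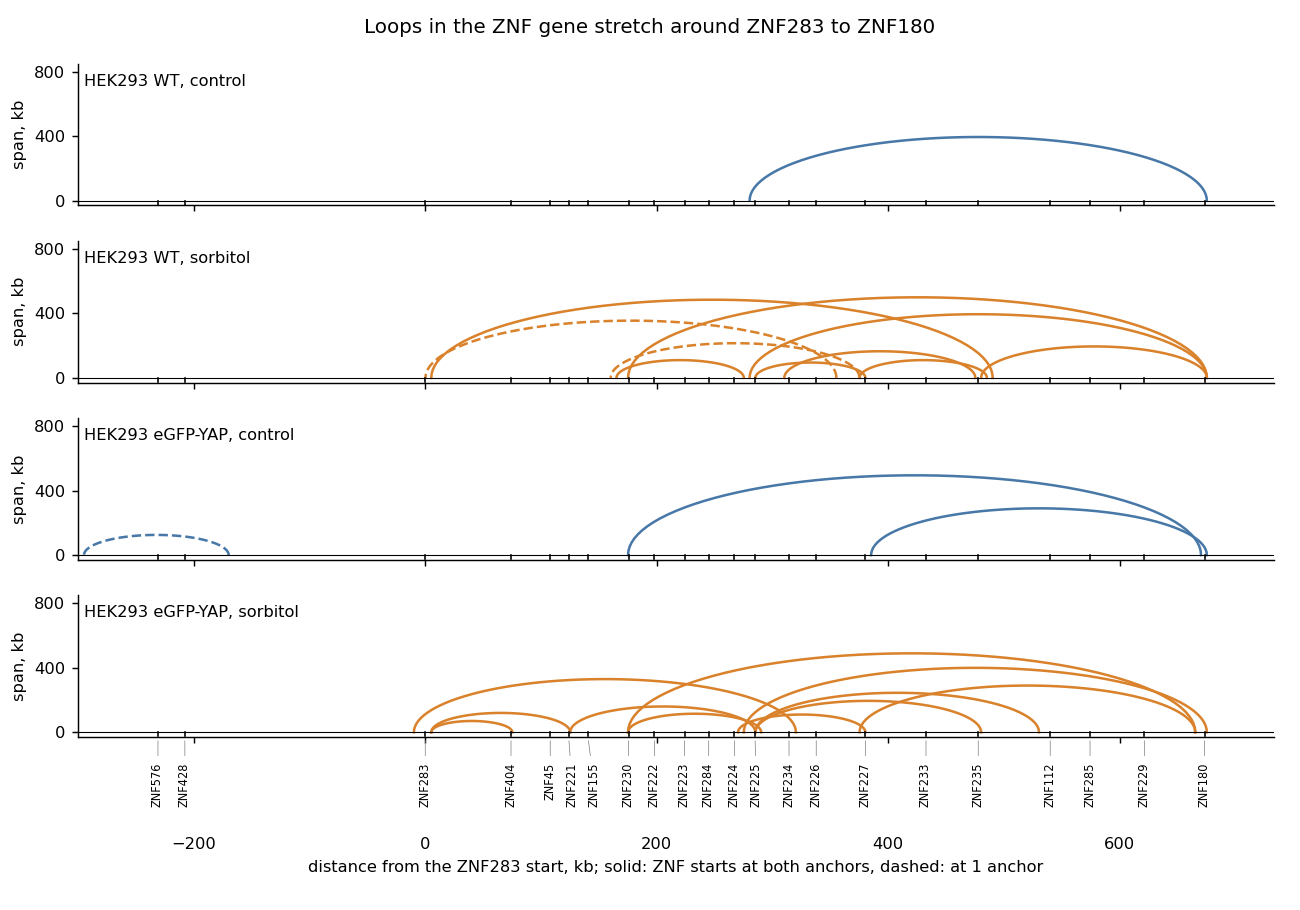
ZNF loops around the stretch from ZNF283 to ZNF180 in the 4 lists, with the distance from the ZNF283 start in kb on the x axis and each loop drawn as an arc whose height is its span in kb; ticks are ZNF gene starts, solid arcs have ZNF starts at both anchors and dashed arcs at 1. The wild-type control list has 1 arc between ZNF starts and the sorbitol list 8, and the eGFP-YAP lists have 2 and 11.

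The 12 genes with the most loops differed in which condition had more of them. ZNF846 had 3 loops in wild-type control and 1 with sorbitol, and 6 and 1 in eGFP-YAP. ZNF317 had 2 and 1, and 4 and 3. ZNF784, ZNF580 and ZNF581 lie side by side and shared most of their loops: ZNF784 had 3 and 0 in wild type and 3 and 3 in eGFP-YAP, and ZNF580 and ZNF581 each 3 and 1 in both lines. ZNF561 had 1 and 1, and 3 and 1. Its total of 6 was shared by ZNF227 (0 and 3, and 1 and 2) and ZNF333 (1 and 2, and 1 and 2), which lie further along the chromosome and had more loops with sorbitol. ZNF121 had 1 and 0, and 3 and 3. The opposite was seen at ZNF225, with 1 and 3 in wild type and 0 and 5 in eGFP-YAP, at ZNF180 with 1 and 3, and 2 and 3, at ZNF628 with 1 and 3, and 1 and 2, and at ZNF358 with 0 and 1, and 0 and 6. ZNF536, which lies over 1 Mb from any other ZNF gene, had 2 and 1, and 2 and 2. At the tops of the remaining clusters, ZNF77 had 5 loops over the 4 lists, ZNF345 had 3, ZNF69 had 2, and ZNF430, ZNF302 and ZNF616 had 1 each.

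Of the 12 ZNF loops matched between the control lists, the one with the highest score joined genes of the ZNF557 to ZNF846 cluster. This loop, ZNF561 to ZNF846 (chr19:9625001-9630000 to chr19:9795001-9800000, 170 kb, in wild type, 165 kb in eGFP-YAP cells), had a mean score percentile of 96.2 over the control lists and was also called in wild-type sorbitol. Loops at ZNF575 (91.2), ZNF564 (86.3), ZNF556 (85.5) and ZNF536 (81.4) came next. ZNF317 to ZNF846 (650 kb in wild type, 665 kb in eGFP-YAP cells, mean percentile 80.9) and ZNF121 to ZNF846 (205 kb, 66.3) scored lower and were called in both control lists and in neither sorbitol list. The ZNF317 to ZNF846 loop was the longest of the ZNF loops matched between the control lists. These loops to ZNF846 ended in chr19:9795001-9800000, which holds the ZNF846 CTCF site printed above, or in the bin next to it.

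At ZNF846 the anchors of most eGFP-YAP sorbitol loops lay elsewhere, a comparison chosen after the values were seen. GENCODE places the gene start at 9793180 and RefSeq at 9768738, 24.4 kb further along the gene. Within 10 kb of the GENCODE start there were 3 loops in wild-type control, 1 with sorbitol, 6 in eGFP-YAP control and 1 with sorbitol. Within 10 kb of the RefSeq start there were 0, 0, 1 and 3. The 3 eGFP-YAP sorbitol loops left from ZNF317 (625 kb), from ZNF121 (190 kb) and from ZNF561 (145 kb), and their far anchors were at chr19:9765001-9770000 and chr19:9770001-9775000. Each of these genes also had an eGFP-YAP control loop to the GENCODE start, as did ZNF559, ZNF562 and an anchor at no ZNF start. The remaining eGFP-YAP sorbitol loop, of 1195 kb, still ended near the GENCODE start (chr19:9785001-9790000). For ZNF561 the left anchors were identical and the right anchors 20 kb apart. In wild type no such loop was listed, and the 1 sorbitol loop ended in chr19:9795001-9800000 as in control.

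Loops in both control lists and in no sorbitol list that were ZNF loops in at least 1 line numbered 8. The highest score was at ZNF575 (chr19:43445001-43450000 to chr19:43520001-43525000, 75 kb, mean percentile 91.2). A loop from chr19:12560001-12565000 to MAN2B1 (mean percentile 86.3) counted as a ZNF564 loop only in eGFP-YAP, where its left anchor was 1 bin closer to the gene. A loop at ZNF653 (mean percentile 52.8) and a further loop at ZNF575 (29.2) likewise counted as ZNF loops only in eGFP-YAP. The start of ZNF784, ZNF580 and ZNF581 was joined to the troponin genes TNNT1 and TNNI3 (485 kb in wild type, 480 kb in eGFP-YAP cells, mean percentile 78.2) and to a site with no protein-coding gene start (110 and 120 kb, 70.9).

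Among loops in both sorbitol lists and in no control list there were 7, each a ZNF loop in both lines. The highest score was between ZNF554 and ZNF77 (chr19:2820001-2825000 to chr19:2940001-2945000, 120 kb) in wild type, and between ZNF555 and ZNF77 (110 kb) in eGFP-YAP, with a mean percentile of 91.0. ZNF333, whose anchor lies next to the adhesion receptor gene ADGRE3, had one of 150 kb (81.8) and ZNF787 one of 200 kb in wild type, 205 kb in eGFP-YAP cells (76.2). ZNF524 and ZNF865 were joined to TNNI3 and DNAAF3 over 445 kb in wild type, 440 kb in eGFP-YAP cells (53.1). By a comparison chosen after the values were seen, this loop ran next to the control loop from ZNF784 to TNNT1 and TNNI3: in both lines its left anchor was 15 kb and its right anchor 25 kb from the nearest control loop. ZNF358 was joined to an anchor near PCP2 and STXBP2 over 125 kb in wild type, 135 kb in eGFP-YAP cells (49.8). In eGFP-YAP sorbitol 5 loops left from the same ZNF358 anchor (chr19:7505001-7510000), with spans of 100, 135, 320, 360 and 415 kb, and no control list had a loop there. The longest ZNF loop matched between the sorbitol lists ran from ZNF317 over 515 kb in wild type, 525 kb in eGFP-YAP cells (48.2).

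Most ZNF loops were not called again in the other condition, and the shares depended on the matching distance. Of the control ZNF loops, 3 of 18 (16.7%, 5.84 to 39.2) had a sorbitol loop with both anchor centres within 10 kb in wild type and 8 of 45 (17.8%, 9.29 to 31.3) in eGFP-YAP; at other gene starts it was 15.1% and 15.9%. Matching within 25 kb gave 44.4% and 33.3% of the ZNF loops, and identical anchor bins gave 5.56% and 0%. Conversely 34 of 37 sorbitol ZNF loops (91.9%, 78.7 to 97.2) in wild type and 50 of 58 (86.2%, 75.1 to 92.8) in eGFP-YAP had no control loop of the same line, against 80.6% (74.0 to 85.8) and 80.4% (75.1 to 84.8) at other gene starts. The other line in the same condition sets the scale. Of the wild-type control ZNF loops 9 of 18 were in the eGFP-YAP control list, and of the eGFP-YAP ones 12 of 45 were in wild-type control. Of the sorbitol ZNF loops 10 of 37 and 10 of 58 were in the other line's sorbitol list, so most ZNF loops of 3 of the 4 lists were not called in the other line either.

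When matched over all lists the ZNF loops came to 128 distinct loops, of which 102 were in a single list. Sorbitol lists alone held 74 (57.8%, 49.2 to 66.0), control lists alone 43 (33.6%, 26 to 42.1) and both kinds 11 (8.59%, 4.87 to 14.7). At other gene starts of the chromosome the 680 distinct loops divided into 282 (41.5%, 37.8 to 45.2), 307 (45.1%, 41.4 to 48.9) and 91 (13.4%, 11 to 16.1). None of the 128 was in all 4 lists, which allows a share of up to 2.34%, and 17 of the 680 were (2.5%).

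The sorbitol loops of wild type that were absent from control also lay far from any control loop. The larger of the anchor offsets to the nearest control loop of the same line had a median of 167.5 kb (60 to 275) over these 34 ZNF loops and 80 kb (65 to 95) over 137 loops at other gene starts. In eGFP-YAP the medians were 77.5 kb (60 to 135) over 50 loops and 65 kb (55 to 75) over 209. Neither anchor was shared with a control loop in 20 of 34 and 20 of 50 ZNF loops, 58.8% (42.2 to 73.6) and 40% (27.6 to 53.8), and in 43.8% (35.8 to 52.2) and 30.1% (24.3 to 36.7) of those at other gene starts. The control lists hold fewer loops near ZNF genes to begin with, and the part of that density in these distances was not tested.

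The median span of ZNF loops was longer than that of loops at other gene starts in control, and less so with sorbitol. The median span was 205 kb (110 to 395) in wild-type control, against 110 kb (100 to 115) at other gene starts, and 260 kb (165 to 310) in eGFP-YAP control against 140 kb (125 to 150). With sorbitol it was 190 kb (135 to 235) against 137.5 kb (120 to 155) in wild type, and 195 kb (150 to 330) against 185 kb (165 to 200) in eGFP-YAP. The intervals overlap in every list except eGFP-YAP control. Loops of chromosome 19 at no gene start had medians of 155 kb in control and 172.5 kb with sorbitol in wild type. In eGFP-YAP these were 190 and 230 kb, so spans above those at other gene starts were not particular to ZNF loops. Spans of ZNF loops ran from 45 to 650 kb, 50 to 650 kb, 35 to 760 kb and 50 to 1195 kb over the lists. The longest was a single eGFP-YAP sorbitol loop to the ZNF846 anchor. The median score percentile of ZNF loops within their list was 72.5 (42.0 to 83.5) in wild-type control, 57.7 (44.7 to 64.8) with sorbitol, 57.1 (48.3 to 71.6) in eGFP-YAP control and 54.9 (44.7 to 73.5) with sorbitol, and that at other gene starts was between 44.2 and 48.7 in every list.

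**Figure D4:**
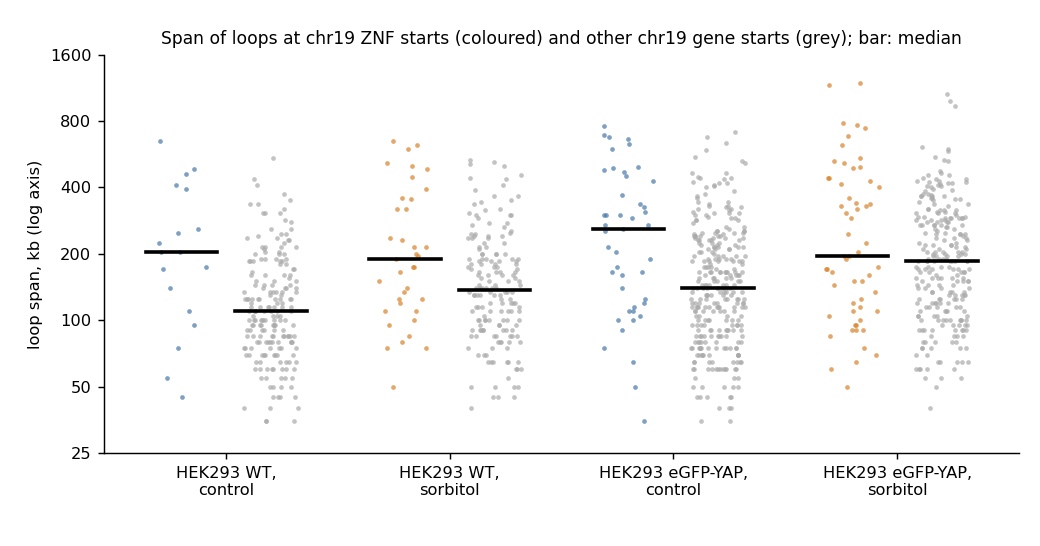
Span of each loop in kb (log axis) at ZNF starts (blue in control, orange with sorbitol) and at other gene starts (grey) of chromosome 19 in the 4 lists; black bars are medians. The medians at ZNF starts are 205, 190, 260 and 195 kb and those at other gene starts 110, 137.5, 140 and 185 kb.

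CTCF motifs were less frequent at the anchors of ZNF loops than at those of other genes in 3 of the 4 lists, and in eGFP-YAP cells less frequent with sorbitol than in control. In wild-type control the intervals of ZNF and other genes overlap. A motif lay in 9 of 36 anchors (25%, 13.8 to 41.1) in wild-type control and 11 of 74 (14.9%, 8.51 to 24.7) with sorbitol. In eGFP-YAP it lay in 32 of 90 (35.6%, 26.4 to 45.8) and 16 of 116 (13.8%, 8.67 to 21.2). The intervals of control and sorbitol overlap in wild type and do not in eGFP-YAP. An anchor shared by several loops was counted once for each loop, so the anchors are not independent and all these intervals are likely too narrow. Whether the eGFP-YAP intervals stay apart with each anchor counted once was not tested. Other gene starts had 38.7% and 31.5% in wild type and 50.3% and 32.7% in eGFP-YAP. The same anchors moved by 100 kb either way give the background: 22.2% and 5.56% for the wild-type control ZNF loops, 6.76% and 9.46% with sorbitol, 13.3% and 8.89% in eGFP-YAP control, and 9.48% and 11.2% with sorbitol. Anchors at other gene starts, moved likewise, had 22.9% and 21.4%, 18.2% and 19.4%, 22.8% and 20.5%, and 21.3% on either side, so a lower motif frequency around ZNF loops was already present in most of these backgrounds. The ZNF intervals of both sorbitol lists and of wild-type control include at least 1 of these backgrounds, and that of eGFP-YAP control does not. Motifs with no mismatch were found in 3 of 36, 2 of 74, 6 of 90 and 0 of 116 anchors, the last of which allows up to 2.59%.

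Of the 45 eGFP-YAP control loops, 7 had a motif at both anchors, 5 of them pointing towards each other and 2 in the same direction. The other lists had 0, 1 and 1 such ZNF loops, too few to compare. The ZNF846 site was at an anchor of 1 wild-type control, 1 wild-type sorbitol and 2 eGFP-YAP control loops, and the ZNF317 site at 3 eGFP-YAP control loops. The ZNF333 site was at 1 sorbitol loop of each line and 1 eGFP-YAP control loop, and the ZNF274 site at 3 sorbitol loops and 1 control loop of eGFP-YAP. ZNF274 itself encodes a KRAB zinc finger protein known to bind the 3′ ends of other ZNF genes.

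**Figure D5:**
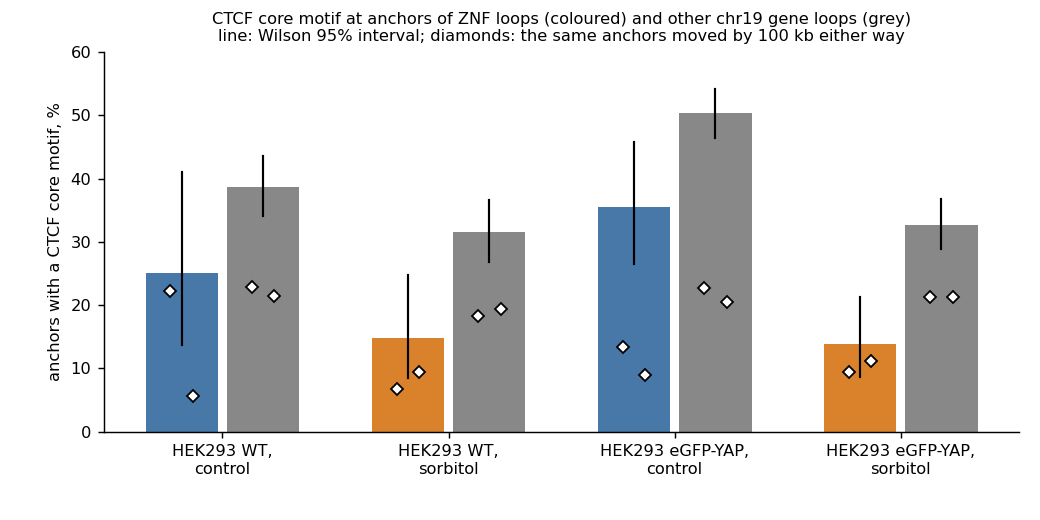
Share of anchors with a CTCF core motif (y axis, %) at ZNF loops (blue in control, orange with sorbitol) and at loops of other gene starts (grey) of chromosome 19 in the 4 lists; black lines are Wilson 95% intervals and white diamonds the same anchors moved by 100 kb either way. The ZNF loops lie at 25, 14.9, 35.6 and 13.8%, each below the other genes of the same list.

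Base composition around ZNF starts differed from that at other genes, while the share of repeated sequence hardly did. Both can bear on how well reads are placed, though repeats shared with other chromosomes were not counted. Windows of 12.5 kb to either side of ZNF starts had a median GC content of 44.4%, against 52.9% at the other genes of the chromosome. Their median share of 50-base words found more than once on chromosome 19 was 4.08%, against 4.16%. The ZNF575 to ZNF296 cluster had the lowest medians of the 9 clusters, 41.1% GC and 2.59% repeated words, and the ZNF554 to ZNF77 cluster the highest for both, 48.4% and 6.98%. ZNF genes with a loop had 45.5% GC and those without 43.7%, and 3.87% and 4.28% repeated words. The part of GC content and repeats in the loop counts was not tested.

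RefSeq promoters, 300 bases each (250 before the start and 50 after), were listed for 218 of the 249 ZNF genes. The RefSeq start was over 1 kb from the GENCODE start in 34 of these, and over 10 kb in 17. Loops were assigned by GENCODE starts, so some promoters of genes with a loop do not lie at the loop anchor. TTCTGGG, a motif chosen after the sequences were seen and searched on both strands, was in 14 of the 16 promoters between ZNF283 and ZNF180 (87.5%), in 15.8% of the 202 other ZNF promoters, in 9.80% of the other promoters of chromosome 19 and in 8.14% of all 15345 promoters. At least 2 copies were in 6 of these 16 promoters and in 0.508% of all. These genes are tandem duplicates, so their promoters are not independent of each other. The ZNF143 core ACTACAA was in 9 of 61 promoters of ZNF genes with a sorbitol loop (14.8%), in 6 of 46 with a control loop (13%, the sets overlap) and in 2 of 139 without any loop (1.44%), against 3.23% of all promoters. For the same sorbitol, control and no-loop sets the YY1 core AAGATGG was in 9.84%, 17.4% and 6.47%. The GC box GGGCGG was in 73.8%, 73.9% and 66.2%. A higher share at genes with a loop was thus not limited to ACTACAA, though these differences were not tested. TTCTGGG was in 29.5%, 19.6% and 18% of the same sets. The stretch from ZNF283 to ZNF180, where TTCTGGG is frequent, was singled out for its loops. The TTCTGGG share of the sorbitol set follows in part from that choice, so it cannot be set against that of ACTACAA. GC boxes were in 67.9% of ZNF promoters and 59.2% of all, AAGATGG in 7.80% and 6.43%, and the TATA box TATAAA in 1.83% and 9.63%. None of these motifs contains another, but ACTACAA and TTCTGGG are not independent of each other. In the ZNF180 promoter the reverse complement of ACTACAA follows TTCTGGG after only a few bases. In ZNF224 and ZNF225, printed above, copies of TTCTGGG are followed likewise by a near match to it. A match describes only the sequence.

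The co-repressor genes through which KRAB zinc finger proteins act were also examined, as a list of 13 genes. Of these 3 had a loop in wild-type control, 2 with sorbitol, 4 in eGFP-YAP control and 5 with sorbitol, and 8 had one in any list. Over all 20046 protein-coding gene starts the shares with a loop were 29.1%, 27.7%, 37.4% and 28.4%, and 60.7% in any list. TRIM28, which lies beyond the last gene of the ZNF628 to ZNF446 cluster, had 2 loops, both in eGFP-YAP sorbitol. They led to ZNF497 (175 kb) and to the adjacent ZNF324 and ZNF446 (85 kb). Their anchors near TRIM28, chr19:58535001-58540000 and chr19:58550001-58555000, lay to either side of its start at 58544064 and did not hold it. The second holds a CTCF motif in an exon of CHMP2A, so these anchors do not single out TRIM28. CBX3, which encodes HP1 gamma, had 0, 5, 3 and 3 loops in the order of the lists. CBX5, CBX1, CHD4, ATF7IP, DNMT1 and UHRF1 had between 1 and 3 loops over all lists, and SETDB1, HDAC1, HDAC2, CHD3 and SMARCAD1 had none. Of 16 other zinc finger genes of chromosome 19 with ZFP, ZSCAN, ZIM, ZIK or PEG3 symbols, 3 had a loop in any list, against 61.9% of all gene starts of the chromosome: ZSCAN22 with 0, 1, 2 and 2, and ZFP36 and ZIK1 with 1 each in eGFP-YAP sorbitol.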

How the data were processed

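In situ Hi-C (MboI) was made from HEK293 samples, and the authors deposited a pooled loop list per condition; SIP called the loops, per the file headers. The deposited columns used are anchor coordinates, the loop score (APScoreAvg) and the fraction that gives the probability of enrichment. The build is hg38 (GRCh38) per the submitters' processing notes; aligner, caller settings and read depth are not given in the sources used here. The 14 samples of the 4 groups were taken to be those behind the lists. Which samples entered each list is not stated in the sources used here. The other 18 samples were not analysed here. The anchors of 4 loops came right before left and were sorted.

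Gene starts came from GENCODE 44 on hg38 and were used with Python 3.11.15, numpy 2.4.6, scipy 1.17.1, pandas 2.3.3 and matplotlib 3.10.9. Loops matched when both anchor centres lay within 10 kb. Scores were ranked as percentiles within each list. Shares carry Wilson intervals, ratios of counts exact intervals and medians intervals from order statistics, all 95%; a count of 0 was given 3 counts as its upper limit. The counting code was tested on simulated data. Genes named are the 12 with most loops, up to 5 top loops per class, the top gene of each cluster and list genes with a loop. Members and lists were chosen with earlier results of these data known. Alternatives varied the distance, list length, matching, score and motif settings; leaving out the ZNF575 to ZNF296 cluster, loops with other gene starts, anchor centres and RefSeq starts were added after seeing the data.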

Additional observations from a re-analysis of the deposited data

Results flagged for a closer look

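Some values moved in opposite directions in the 2 lines, and with a single list per condition this difference was not tested. ZNF genes on other chromosomes had a ratio of sorbitol to control loops of 1.32 in wild type and 0.672 in eGFP-YAP. The share of chromosome 19 ZNF loops with ZNF starts at both anchors was 9.91 percentage points higher with sorbitol in wild type, and the difference of sorbitol minus control was -10.5 percentage points in eGFP-YAP. In the ZNF557 to ZNF846 cluster the number of loops with sorbitol minus that in control was -1 in wild type (6 and 5 loops) and 2 in eGFP-YAP (12 and 14 loops).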

How the results depend on the processing

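Of 136 values under alternative settings, 107 kept their direction and size, 25 moved and 4 turned direction. Size was kept when a value lay within the counting interval of the main value, or for numbers of genes within a fixed fold limit. Many of these intervals are wide, so the 107 are not a measure of robustness. With the start inside the anchor, the ratio of ratios counted as kept although it fell from 2.41 to 1.51 in wild type. In eGFP-YAP it counted as kept on going from 1.56 to 1.15. Merging neighbouring loops changed no value, so its share of the 107 says nothing about robustness. Loops at other gene starts turned from fewer to more with sorbitol when the start had to lie inside the anchor (ratios 1.42 for wild type, 1.43 for eGFP-YAP) and with the shortened control list (2.62 and 3.61). With that list the ratio of ratios was 1.18 and 1.00, and the eGFP-YAP ZNF ratio 3.63. With identical anchor bins, 5.56% and 0% of control ZNF loops were called again and 97.3% and 100% of sorbitol ones were absent from control; matching within 25 kb gave 44.4% and 33.3%, and 74.1% absent in eGFP-YAP. ZNF genes with a loop numbered 7, 16, 17 and 24 with the start inside the anchor, and 35, 63 and 80 within 25 kb in wild-type control, wild-type sorbitol and eGFP-YAP sorbitol. The CTCF share was 8.33%, 2.70%, 6.67% and 0% without mismatches, and 52.8%, 35.1%, 60% and 37.1% in anchors widened by 5 kb. Without the ZNF575 to ZNF296 cluster, a choice made after seeing the data, the ratio of ratios was 1.98 (1.03 to 3.79) and 1.42 (0.903 to 2.23), and with RefSeq starts 2.07 (1.15 to 3.69) and 1.5 (0.983 to 2.30). Apart from what the settings themselves change, the cause was not tested. No paired analysis was possible because each condition has 1 pooled list, and for the same reason no replicate could be left out. Read depth behind the lists is unknown, so a loop absent from a list may be below detection there.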
